A study of Mus musculus with 12 samples.

Results

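The response of Tlr7-/- ear skin to imiquimod was read on 2 of the 12 arrays of the study, 1 of untreated Tlr7-/- skin and 1 of Tlr7-/- skin 4 h after imiquimod (IMQ), both chosen by their sample labels. Whole ear skin of C57BL/6J mice of 5 genotypes was profiled on single-colour Agilent arrays of 60-base probes, namely Tlr7-/-, Card14-/-, Tlr9-/-, Tlr7-/-Tlr9-/- and wild type (WT). Treated mice had 62.5 mg of a cream with 5% IMQ applied to the ears, and untreated mice received nothing, so the cream base has no group of its own. Each array carried 200 ng of RNA from a pool of 6 to 8 mice. Ages and sexes of the mice are not stated in the labels used here. Each genotype had 1 untreated array, and after IMQ there was 1 array each for WT, Tlr7-/- and Tlr9-/- and 2 each for Tlr7-/-Tlr9-/- and Card14-/-. WT, Tlr9-/- and Card14-/- skin are called carriers below because they carry Tlr7, and Tlr7-/-Tlr9-/- skin is the other genotype without it. The labels name no cell type to which a deletion is limited. Whether repeat arrays carry the same pool is not stated, so p-values measure the spread between arrays, which may be technical.

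TLR7 is an endosomal receptor for single-stranded RNA and for small imidazoquinolines such as IMQ. It signals through MyD88 to NF-kB and to IRF7, and in plasmacytoid dendritic cells it drives type I interferon, which in turn raises interferon-stimulated genes in neighbouring cells. Skin keratinocytes can also answer irritation, wounding or cream without TLR7, through AP-1 and NF-kB, with chemokines such as CCL20 and CXCL1. The comparison asks which early changes of gene expression were seen in skin that lacks the receptor.

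The deletion was seen on both Tlr7 arrays. On the main Tlr7 probe (chrX:163742863-163742922, mm9), the log2 signal was 5.49 in untreated and 4.02 in treated Tlr7-/- skin, the latter below background. The 7 arrays of carriers lay between 7.36 and 8.12 and the 3 arrays of Tlr7-/-Tlr9-/- skin between 5.34 and 5.85. Tlr9 read 11.05 and 11.18 and Card14 11.10 and 11.15 in untreated and treated Tlr7-/- skin. The Tlr9 probe also read 10.95 and 11.05 in Tlr9-/- skin and 11.08 to 11.33 in Tlr7-/-Tlr9-/- skin. It therefore does not show the Tlr9 deletion. All values below are log2 signals after quantile normalisation, and differences are on the same log2 scale, where 1 is a doubling.

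The pools of Tlr7-/- skin differed in sex, while each pool of the other genotypes gave signal of both sexes. Eif2s3y, a Y-linked translation factor gene, read 2.03 in untreated Tlr7-/- skin, below background, and 11.04 after IMQ, at least 143-fold higher. Ddx3y, a Y-linked RNA helicase gene, read 1.91 and 7.29, and Uty, a Y-linked histone demethylase gene, 2.01 and 7.82. Xist, the RNA of the inactive X chromosome, went the other way, from 7.89 in untreated to 1.91, below background, in treated Tlr7-/- skin. In every other group, Eif2s3y lay between 10.27 and 11.02 and Xist between 4.72 and 6.87, so those pools held RNA of males and females. Of the 19 probes below background in the untreated Tlr7-/- array alone, 8 lie on the Y chromosome. Sex and treatment therefore cannot be told apart within Tlr7-/- skin for any change described below.

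Other genes were also near or below background in 1 of the Tlr7-/- pools and not in the other. Defb8 and Defb7, beta-defensin genes of chromosome 8, read 2.03 and 2.39 there and 11.94 to 13.45 and 6.99 to 8.80 on the other 11 arrays. S100a7l2, a gene of the S100 family, read 3.59 in untreated Tlr7-/- skin and 8.05 to 10.78 elsewhere. Slfn4, a Schlafen gene of myeloid cells, read 7.21 in treated Tlr7-/- skin and at most 4.69 on any other array. These 4 genes were singled out after their values were seen. Keratins of the growing hair differed as well and are described further down. Of all probes, 63.9% were well above background in untreated and 61.8% in treated Tlr7-/- skin, and 60.1% to 65.7% over all arrays. The 75th percentile of the raw signal was 1191 and 616, against 1070 to 1236 on all untreated and 527 to 779 on all treated arrays.

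**Figure D1:**
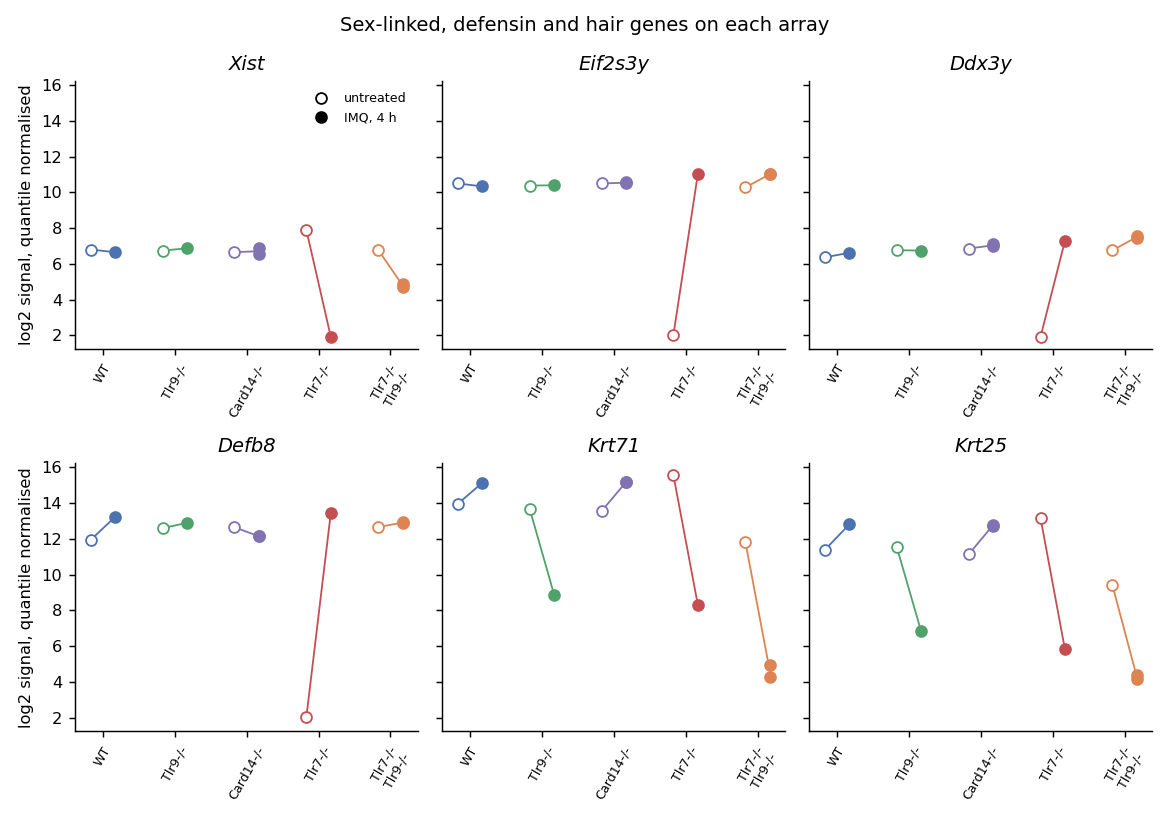
Log2 signal (y axis) of 6 genes on each array, by genotype (x axis), with open points for untreated and filled points for treated skin and lines joining untreated skin to the mean of treated skin. Eif2s3y and Ddx3y were below background and Defb8, at 2.03, too in untreated Tlr7-/- skin, Xist was at 1.91 in treated Tlr7-/- skin, and Krt71 and Krt25 were highest among untreated skin in Tlr7-/-.

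Over all 24068 genes tested, 938 rose in Tlr7-/- skin after IMQ, 3.9% of them, and 882 fell, 3.66% (limma, Benjamini-Hochberg adjusted p under 0.05 and a change of at least 1). The spread in this test comes from the repeat arrays of Tlr7-/-Tlr9-/- and Card14-/- skin, since each Tlr7-/- group is 1 pool, so that the lone pools are assumed to vary like the repeats. When the spread between the responses of WT, Tlr9-/- and Card14-/- skin was used in its place, 1 gene rose and 1 fell, 0.00415% each, namely Eif2s3y and the X-inactivation transcript on its XIST probe, both sex-linked. Without 1 of the Card14-/- repeat arrays 74 rose and 96 fell. Calls below are those of the repeat-array fit, and the sizes are given beside the responses of the other genotypes for that reason. With arrays scaled to their 75th percentile, 1107 rose and 689 fell. Genes on X and Y added little to the counts, and 896 rises and 858 falls were called without them.

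The sign of a rise was often shared with the other genotypes. Of the 938 rises, 692 (73.8%) had the same sign in each of the 4 other genotypes, against 34.9% of all genes that had a positive response in Tlr7-/- skin. In 226 of them (24.1%) the change was at least 1 in all 5 genotypes. Of the 882 falls, 392 (44.4%) had the same sign in the others, against 46.1% of all genes with a negative response, and 51 (5.78%) fell by at least 1 in all. Both reference shares include genes of any size of response, so they are not matched in size to the called genes. Across genes, the Tlr7-/- response correlated with that of Tlr9-/- skin at Pearson's r = 0.62, of WT at 0.514, of Tlr7-/-Tlr9-/- at 0.459 and of Card14-/- at 0.11 (24068 genes, which are not independent replicates). No 2 genotypes share an array in these correlations, but Tlr7-/-, WT and Tlr9-/- skin share slide 1.

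Read from the side of the carriers, 366 genes (1.52% of those tested) rose by at least 1 in each of WT, Tlr9-/- and Card14-/- skin. In Tlr7-/- skin 246 of these 366 (67.2%) were called as rises, 99 lay above 0 without passing, and 21 (5.74%) were at or below 0. For 25 of the 366 (6.83%) the Tlr7-/- response was called lower than the mean response of the carriers. The 366 were chosen by the carrier responses that this difference subtracts. A call as lower is therefore favoured among them, and their share adds no support. The background is 1.37% for a difference called lower and 0.445% for one called higher, or 329 and 107 of all genes. With Card14-/- skin left out, so that all arrays compared lay on slide 1, these counts were 345 and 158. Set against Tlr7-/-Tlr9-/- skin, the Tlr7-/- response was called higher for 478 genes (1.99%) and lower for 616 (2.56%). The treated arrays of these 2 genotypes lay on different slides, so slide and genotype cannot be told apart there. Untreated Tlr7-/- skin was called higher than other untreated skin for 140 genes (0.582%) and lower for 34 (0.141%). Without either Card14-/- repeat array, all 6 of these counts against the carriers, Tlr7-/-Tlr9-/- skin and untreated skin were 0 at the adjusted p, and without either Tlr7-/-Tlr9-/- repeat array those against Tlr7-/-Tlr9-/- and untreated skin were. At an unadjusted p under 0.05, these limma counts were 353 to 673 against carriers, 828 to 1225 against Tlr7-/-Tlr9-/- skin and 120 to 319 against untreated skin. Of 133 genes (0.553%) that fell by at least 1 in each carrier, 60 (45.1%) were called as falls in Tlr7-/- skin.

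Interferon-stimulated genes, which answer type I interferon, gave 0 calls in Tlr7-/- skin and the largest rises among those seen in carriers but not in Tlr7-/- skin. Of 44 listed genes 42 were tested, since Oas1g and Oas3 did not pass the signal filter. In Tlr7-/- skin 0 of the 42 rose and 0 fell, also at an unadjusted p under 0.05, because every response lay between -0.99 and 0.93, inside the size limit. At any size, 8 were higher and 16 lower after IMQ (limma adjusted p under 0.05), against 3635 and 4543 of all 24068 genes. Their median response was -0.22 in Tlr7-/- and -0.29 in Tlr7-/-Tlr9-/- skin, against 1.32 in WT, 1.05 in Card14-/- and 0.30 in Tlr9-/- skin. Over all genes the medians were -0.06, -0.04, -0.15, -0.03 and -0.11 in the same order. In 33 of the 42 the Tlr7-/- response lay under that of each carrier, as it did for 17.2% of all genes. The difference from the carriers was called lower for 17 of the 42 and higher for 0, against 1.37% and 0.445% of all genes. The difference from Tlr7-/-Tlr9-/- skin was called for 0 (0 at an unadjusted p under 0.05). In whole skin, fewer cells of a type and less RNA per cell cannot be told apart, here and in all results below.

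Ifit1, which binds viral RNA that lacks host cap marks, had the largest difference from the carriers in the list. Its level was 6.40 in untreated Tlr7-/- skin and 5.66 after IMQ. In untreated skin of WT, Tlr9-/-, Tlr7-/-Tlr9-/- and Card14-/- mice it read 6.35, 6.72, 6.35 and 5.72, a range that holds the Tlr7-/- value. After IMQ it read 10.75 in WT, 9.13 in Tlr9-/- and 10.02 on both Card14-/- arrays, but 5.81 and 5.79 in Tlr7-/-Tlr9-/- skin. Treated Tlr7-/- skin thus lay with treated Tlr7-/-Tlr9-/- skin, which played no part in choosing the gene. Ifit1 was chosen by its difference from the carriers, so its distance from every treated carrier follows largely from that choice. The response was -0.74 in Tlr7-/- skin (SE 0.05), and lay 4.44 below that of the carriers (limma adjusted p = 0.00164).

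Mx2 and Mx1, dynamin-like GTPases that block viruses, gave values of the same kind. Mx2 read 6.23 in untreated and 5.82 in treated Tlr7-/- skin, while treated WT, Tlr9-/- and Card14-/- skin read 10.26, 8.45 and 9.08 and 9.16. Its response in Tlr7-/- skin differed from the carriers by -3.73 (limma adjusted p = 0.00323). Mx1 read 6.17 and 5.30, with responses of 2.80, 1.92 and 2.41 in WT, Tlr9-/- and Card14-/- skin, a difference of -3.24 (limma adjusted p = 0.0188). Oasl1, which limits translation of Irf7 mRNA, and Cmpk2, a mitochondrial nucleotide kinase next to viperin in the genome, differed by -3.0 and -2.93. Usp18, the protease that removes ISG15 from proteins, differed by -2.12. The treated Tlr7-/- array was below every treated carrier array for each of these 6 genes. They were picked for a response called lower than in carriers, so this order follows largely from the choice and adds no support. None of the 6 untreated levels was called apart from other untreated skin.

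Members further down the list were chosen by their response in Tlr7-/- skin. Ifih1, a cytosolic sensor of double-stranded RNA, had the most negative response, -0.99, although its other probe read 0.23, and Ifi205, an interferon-inducible DNA-binding protein gene, the most positive, 0.93. Ifi205 responded by 0.71 to 1.30 in the 4 other genotypes, a range that holds the Tlr7-/- value. Slfn5, a Schlafen gene, responded by 0.81 in Tlr7-/- and by 0.33 to 1.15 in other skin, while its 3 other probes read 0.17, 0.25 and 0.49 in Tlr7-/- skin. Irf7, the interferon regulatory factor downstream of TLR7, read 11.38 and 11.45 in untreated and treated Tlr7-/- skin and rose by 1.58 in WT, a difference from the carriers of -1.09 (limma adjusted p = 0.0419). Isg15, a ubiquitin-like modifier, read 10.36 and 10.37 and differed from the carriers by -1.93. Irf7 and Isg15 were named after their values were seen. Of 12 tested genes of interferons, their receptors and receptor kinases, 0 rose and 0 fell in Tlr7-/- skin, also at an unadjusted p under 0.05 and a size of at least 1. The only interferons among them were Ifna1, Ifna5, Ifna9 and Ifnl3. Ifng, Ifne, Ifnk, Ifnb1, Ifna4 and Ifna2 were too dim to be tested, and Ifnl2 was not found by name. In each other genotype, 1 gene of this list rose by at least 1. The list therefore cannot tell whether interferon RNA was induced in Tlr7-/- skin.

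**Figure D2:**
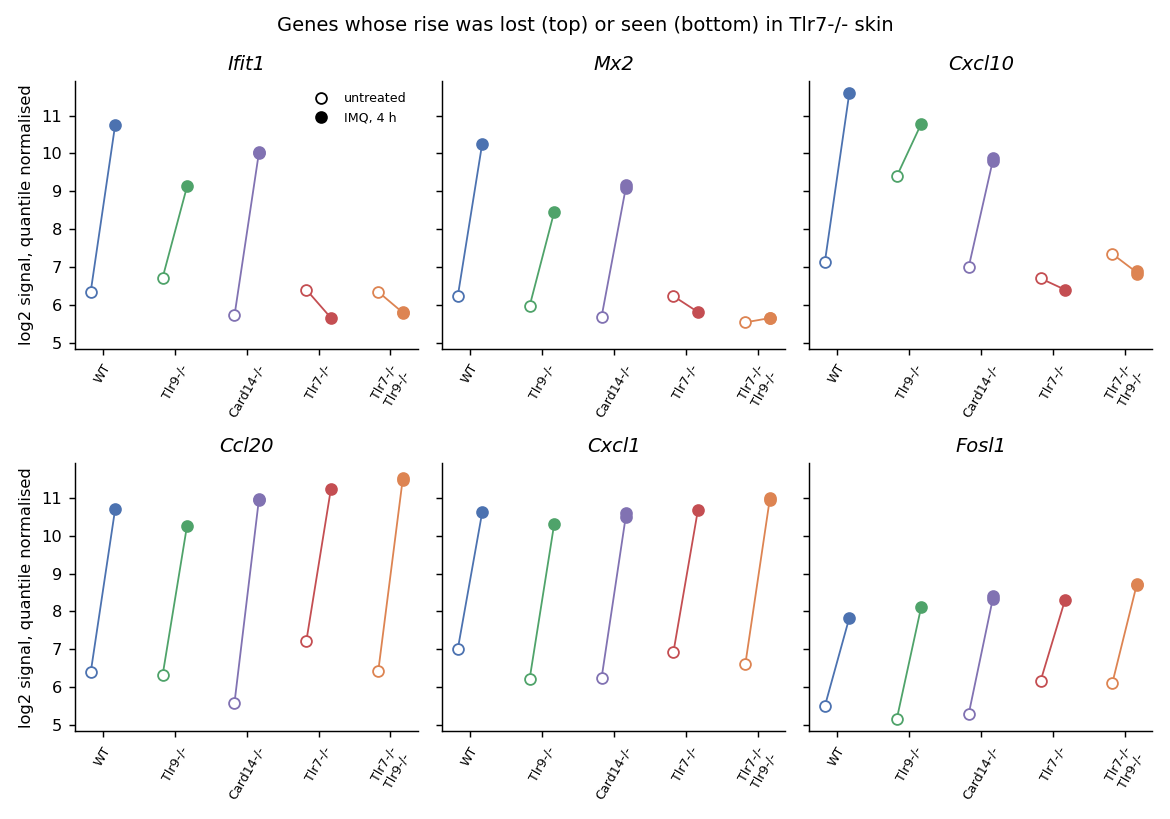
Log2 signal (y axis) of 6 genes on each array, by genotype (x axis), with open points for untreated and filled points for treated skin and lines joining untreated skin to the mean of treated skin. Ifit1, Mx2 and Cxcl10 rose in WT, Tlr9-/- and Card14-/- skin but read 5.66, 5.82 and 6.40 in treated Tlr7-/- skin, while Ccl20, Cxcl1 and Fosl1 rose in all 5 genotypes.

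Other genes with a response of at least 1 in each carrier and one called lower in Tlr7-/- skin included a chemokine, a transporter and an envelope gene. Cxcl10, a chemokine that draws T cells through CXCR3, read 6.70 in untreated and 6.40 in treated Tlr7-/- skin. The untreated level was under the 6.99 to 9.39 of the other untreated pools and was called lower. In treated WT, Tlr9-/- and Card14-/- skin it read 11.59, 10.78, and 9.80 and 9.88, and the difference from the carriers was -3.19 (limma adjusted p = 0.00564). Slc13a3, a sodium-coupled dicarboxylate transporter gene, responded by -0.51 in Tlr7-/- and by 1.09 to 1.48 in carrier skin, a difference of -1.82. Lce3c, a cornified envelope gene, responded by -0.13 against 1.03 to 1.44, a difference of -1.34. Untreated Tlr7-/- skin read 12.85 for Lce3c, above the 11.73 to 12.78 of the other untreated arrays, and treated skin read 12.72. Hmox1, the stress-induced haem oxygenase, also differed, by -1.51, but its carriers did not act together, with responses of 4.12 in WT, 0.52 in Tlr9-/- and 0.49 in Card14-/- skin.

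Promoters of genes from both sets show the sequences near the start sites of a lost and a kept rise. Each runs 5′ to 3′ from 250 bases before to 50 bases after the gene start, from RefSeq on GRCm38.p6. They are the first 3 lost and the first 3 shared rises that the promoter table holds, and Mx2, Mx1 and Fosl1 are not shown. Capitals mark matches on either strand to the ISRE core (TTTC, any 2 bases, TTTC) bound by interferon-activated factors, to the AP-1 site TGANTCA, or to the NF-kB consensus. NF-kB matches can overlap each other, and a match describes letters, not binding. Ifit1 (chr19:34640639-34640938), Cxcl10 (chr5:92348840-92349139, minus strand) and Oasl1 (chr5:114922990-114923289) are the lost rises.
Ifit1: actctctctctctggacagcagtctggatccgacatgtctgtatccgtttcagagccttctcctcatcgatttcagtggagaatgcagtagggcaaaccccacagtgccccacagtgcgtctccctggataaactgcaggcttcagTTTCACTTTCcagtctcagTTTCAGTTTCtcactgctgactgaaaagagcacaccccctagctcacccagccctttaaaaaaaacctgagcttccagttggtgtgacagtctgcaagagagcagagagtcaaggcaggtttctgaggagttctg
Cxcl10: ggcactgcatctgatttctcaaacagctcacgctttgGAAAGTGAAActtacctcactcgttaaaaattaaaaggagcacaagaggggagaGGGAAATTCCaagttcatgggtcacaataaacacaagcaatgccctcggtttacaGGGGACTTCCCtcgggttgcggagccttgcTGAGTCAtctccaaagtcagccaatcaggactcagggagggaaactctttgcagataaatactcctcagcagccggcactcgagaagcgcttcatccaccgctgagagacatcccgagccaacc
Oasl1: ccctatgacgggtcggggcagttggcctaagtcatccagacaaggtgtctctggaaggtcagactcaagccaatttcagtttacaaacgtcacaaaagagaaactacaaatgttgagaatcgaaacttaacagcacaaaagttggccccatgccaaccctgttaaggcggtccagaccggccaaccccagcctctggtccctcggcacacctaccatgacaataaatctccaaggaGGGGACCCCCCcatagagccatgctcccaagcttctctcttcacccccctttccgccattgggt
Ccl20 (chr1:83116516-83116815), Cxcl1 (chr5:90890995-90891294) and H2bc18 (chr3:96269450-96269749) are the shared rises.
Ccl20: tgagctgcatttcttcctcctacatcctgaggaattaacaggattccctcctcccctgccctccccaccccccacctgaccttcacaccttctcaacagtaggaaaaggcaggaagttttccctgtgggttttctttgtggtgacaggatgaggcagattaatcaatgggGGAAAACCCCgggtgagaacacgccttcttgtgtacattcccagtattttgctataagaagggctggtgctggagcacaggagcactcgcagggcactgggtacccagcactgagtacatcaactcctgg
Cxcl1: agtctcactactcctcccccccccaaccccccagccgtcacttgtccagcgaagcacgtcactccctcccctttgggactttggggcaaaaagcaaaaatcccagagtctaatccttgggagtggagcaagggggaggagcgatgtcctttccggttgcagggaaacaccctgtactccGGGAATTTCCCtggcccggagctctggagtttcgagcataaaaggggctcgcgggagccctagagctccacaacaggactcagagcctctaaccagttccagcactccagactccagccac
H2bc18: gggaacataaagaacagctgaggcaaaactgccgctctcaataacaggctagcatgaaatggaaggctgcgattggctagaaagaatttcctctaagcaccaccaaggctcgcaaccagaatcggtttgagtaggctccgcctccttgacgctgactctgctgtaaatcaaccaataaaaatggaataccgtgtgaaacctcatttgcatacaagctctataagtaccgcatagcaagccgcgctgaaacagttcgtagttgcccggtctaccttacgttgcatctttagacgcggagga
The Ifit1 promoter held 2 ISRE matches, at positions -104 and -85 from the gene start. Cxcl10 held 1 at -213, together with 3 NF-kB matches and 1 AP-1 match. Oasl1 held 2 overlapping NF-kB matches in this window and 0 ISRE matches. Ccl20 held 1 NF-kB match at -80, and Cxcl1 held 2 that overlap, at -71 and -70. H2bc18 held none of the 3 motifs. Over all 32851 promoters of this length in the table, 3.44% held the ISRE core, 7.81% the AP-1 site and 8.46% the NF-kB consensus. The ISRE core was in 20 of 32 listed interferon-stimulated genes found in the table (62.5%), and in 6 of the 12 found among those called lower than in carriers (50%). It was in 0 of 27 NF-kB early response genes, of which 17 (63%) held the NF-kB consensus. The AP-1 site was in 9 of the 32 interferon-stimulated genes (28.1%) and in 5 of the 12 called lower (41.7%). That site was in 6 of the 27 NF-kB early response genes (22.2%) and in 0 of 26 immediate early genes. The NF-kB consensus was in 5 of the 32 interferon-stimulated genes (15.6%) and in 7 of the 26 immediate early genes (26.9%).

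Some chemokines and early signalling genes of skin rose in Tlr7-/- skin, a minority of each list. Ccl20, the ligand of CCR6 on Langerhans cell precursors and IL-17-producing T cells, was 7.22 in untreated and 11.22 in treated Tlr7-/- skin, 15.9-fold higher (log2 change 3.99, SE 0.06, limma adjusted p = 0.00207). It read 5.59 to 6.43 in the other untreated and 10.26 to 11.52 in the other treated arrays. Responses were 4.31 in WT, 3.95 in Tlr9-/-, 5.37 in Card14-/- and 5.06 in Tlr7-/-Tlr9-/- skin, and the last differed from Tlr7-/- skin by 1.07 (limma adjusted p = 0.0305). Untreated Tlr7-/- skin was the highest of the 5 untreated pools, and treated Tlr7-/- skin lay inside the range of treated skin.

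Cxcl1, a neutrophil attractant of keratinocytes, was 6.93 in untreated and 10.67 in treated Tlr7-/- skin. Both values lay inside the ranges of the other untreated and treated arrays, the latter 10.29 to 10.99. The response of 3.74 (SE 0.08, limma adjusted p = 0.00362) compares with 3.62 to 4.35 in the other genotypes. Fosl1, an AP-1 subunit of wounded epidermis, was 6.16 and 8.30, a rise of 2.14, with responses of 2.33 to 3.08 elsewhere. Of the immediate early genes, 8 of 36 rose and 0 fell in Tlr7-/- skin, and 30 of 36 had a positive sign. Their median response was 0.61, against 0.77 to 0.79 in the other genotypes and -0.06 over all genes. For 13 of the 36 the Tlr7-/- response lay under that of each carrier, as it did for 17.2% of all genes. For 12 it lay under all 4 other genotypes, as for 14.9% of all genes.

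Nr4a1, an orphan nuclear receptor gene induced within an hour of many stimuli, rose from 12.04 to 13.59, and Fos, an AP-1 subunit, from 10.29 to 11.61. Arc, an immediate early gene best known from neurons, rose from 8.29 to 9.54, less than in the carriers by 1.03 (limma adjusted p = 0.0214). Its untreated level of 8.29 was above the 7.05 to 7.66 of other untreated skin, and its treated level inside the 9.26 to 10.07 of other treated skin. Dusp2, a phosphatase that switches off MAP kinases, read 9.56 and 9.41, while it responded by 0.70 to 1.91 elsewhere, a difference from the carriers of -1.51. Its untreated level too was above the 8.50 to 8.78 of other untreated pools. Dusp2 was named after its values were seen.

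Among 33 tested early genes of the NF-kB pathway, 9 were higher after IMQ by the test and 1 was lower, with a median response of 0.42, against 0.37 to 0.63 in other skin. For 14 of the 33 the Tlr7-/- response lay under that of each carrier, as it did for 17.2% of all genes. For 10 it lay under all 4 other genotypes, as for 14.9% of all genes. The risers included Nfkbiz, an inducible nuclear cofactor of NF-kB, from 8.80 to 9.88, and Tnf, the inflammatory cytokine, from 6.11 to 7.12. Bcl3, another nuclear cofactor, rose by 1.25, Cd83, a marker of activated dendritic cells, by 1.52, and Ptgs2, the inducible cyclooxygenase, by 1.23. These 5 were named after their values were seen, and 0 of them differed by a call from the carriers or from Tlr7-/-Tlr9-/- skin. Il6, a cytokine of the acute phase, read 3.41, below background, in untreated and 4.93 in treated Tlr7-/- skin, at least 2.07-fold higher by the lowest measurable signal of the array. The 1 fall was Il1a, an alarmin stored in keratinocytes, from 6.48 to 4.56, whereas it responded by -0.64 to -0.03 elsewhere (difference from the carriers -1.48, limma adjusted p = 0.0299).

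**Figure D3:**
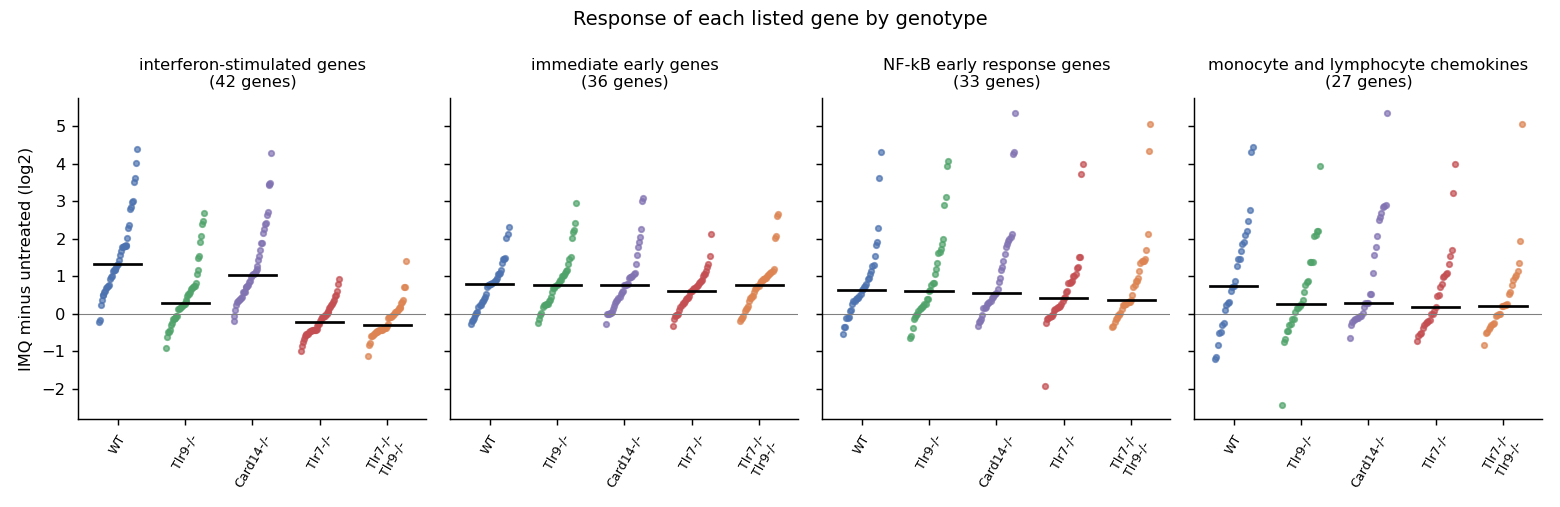
Response (IMQ minus untreated, log2, y axis) of each tested gene of 4 lists, by genotype (x axis), with genes sorted by value within a genotype and a bar at the median. The interferon-stimulated genes of Tlr7-/- and Tlr7-/-Tlr9-/- skin centre at -0.22 and -0.29, while the immediate early genes centre between 0.61 and 0.79 in all 5 genotypes.

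Cytokines of the epidermis showed a mixed picture. Il20, a keratinocyte cytokine of the IL-10 family, rose from 4.83 to 7.38 in Tlr7-/- skin, with responses of 1.49 to 2.36 elsewhere. Il22ra1, a subunit of receptors for IL-20 and IL-22, rose by 1.44, though another probe of the gene read 0.58. In all, 2 of 21 tested genes of the IL-1, IL-36 and IL-20 families rose and 1 fell, at a median of -0.35. Epgn, an EGF receptor ligand, rose from 4.75 to 6.92. Its probe read 3.07 to 3.74 in other untreated skin, not well above background, and 6.31 to 7.16 on the other treated arrays, so its responses there are not compared in size. Areg, another EGF receptor ligand, read 6.57 and 6.70 while it responded by 1.44 to 2.17 elsewhere, and it was named after its values were seen. Its untreated level, again, was above the 5.04 to 6.00 of other skin.

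Of 27 tested monocyte and lymphocyte chemokines 8 rose and 0 fell, at a median of 0.20. Ccl24, an eosinophil chemokine, rose from 9.54 to 11.10, and Ccl1, a ligand of CCR8, from 5.28 to 6.98, with responses within the range of the other genotypes. The responses of the monocyte chemokines Ccl12, Ccl7 and Ccl2 lay under those of each carrier. Ccl12 rose from 7.54 to 8.57, and its response of 1.02 was 1.46 below that of the carriers (limma adjusted p = 0.0367) and 0.50 above that of Tlr7-/-Tlr9-/- skin. Ccl7 responded by 0.99 in Tlr7-/- and by 2.21 to 2.50 in carrier skin, and Ccl2 by 1.32 and by 1.92 to 2.59. The difference was called for Ccl7, at -1.32, and was -0.89 for Ccl2, under the size limit. In treated skin, Ccl7 read 10.31 in Tlr7-/-, 10.03 and 10.07 in Tlr7-/-Tlr9-/- and 11.17 to 11.88 in carriers. How many of all genes part by genotype in this way was not counted. Ccl2 and Ccl7 were named after their values were seen.

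Ccl3 and Ccl4, inflammatory chemokines, parted in Tlr7-/- skin. Ccl3 rose from 4.67 to 7.91, above the 4.69 to 7.21 of the other treated arrays, and its response of 3.23 was above that of the carriers by 1.59 (limma adjusted p = 0.0457) and of Tlr7-/-Tlr9-/- skin by 2.99 (limma adjusted p = 0.0251). Ccl4 read 4.44 in untreated and 4.20, below background, in treated Tlr7-/- skin, and 7.09 to 8.63 in treated carriers. In treated Tlr7-/-Tlr9-/- skin Ccl3 read 4.88 and 4.69 and Ccl4 4.63 and 4.47. Ccl4 was named after its values were seen.

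Among genes above background on all arrays compared and within the other limits set for named genes, most of the 10 largest rises were read on probes with a GA repeat. Of these 10, Ccl20, Cxcl1 and Ccl3 were read on probes without one, and Cldn24, Dmrtb1, Rhox3a, Fgf2, Snhg15, Olfr1097 and Prr3 on probes that hold GAGAGA. Among them are genes of testis or smell. Cldn24, a claudin, went from 8.10 to 11.79, and Rhox3a, a homeobox gene of the X chromosome, from 8.38 to 11.72. Their responses were largest in WT, 5.50 and 5.74, followed by Tlr9-/-, 4.30 and 3.50, and Tlr7-/- skin, 3.69 and 3.34, all on slide 1. They were lower in Tlr7-/-Tlr9-/-, 2.17 and 2.67, and Card14-/- skin, 1.56 and 1.87, whose treated arrays lay on slide 2. Other probes of Fgf2, Snhg15 and Prr3 read 0.44, 0.48 and 0.05 in Tlr7-/- skin, where the GA-repeat probes read 3.28, 3.21 and 3.12. Of 696 genes read on a probe with GAGAGA, 155 (22.3%) were called as rises, against 783 of 23372 (3.35%) on other probes. These probes were looked at after their values were seen, and without them 786 genes rose and 868 fell. What these probes bound was not tested.

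Histone genes formed another group among the shared rises. H2bc18 went from 9.84 to 11.82, H3c11 from 6.02 to 8.15 and H2bc7 from 8.75 to 10.89 in Tlr7-/- skin. Their responses of 1.98, 2.13 and 2.13 lay close to those of the other genotypes, 1.82 to 2.60. The probes of these 3 genes hold the stem-loop sequence that ends replication-dependent histone mRNAs. Those mRNAs normally carry no poly(A) tail, and the labelling used oligo-dT primers. Of 5 genes tested on a probe with this stem-loop, 4 rose in Tlr7-/- skin, the fourth being H3c1, which rose by 1.54. Of 24 cell cycle genes 0 rose and 3 fell (Kif20a, Cenpe and Bub1b, genes of mitosis), at a median of -0.64.

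**Figure D4:**
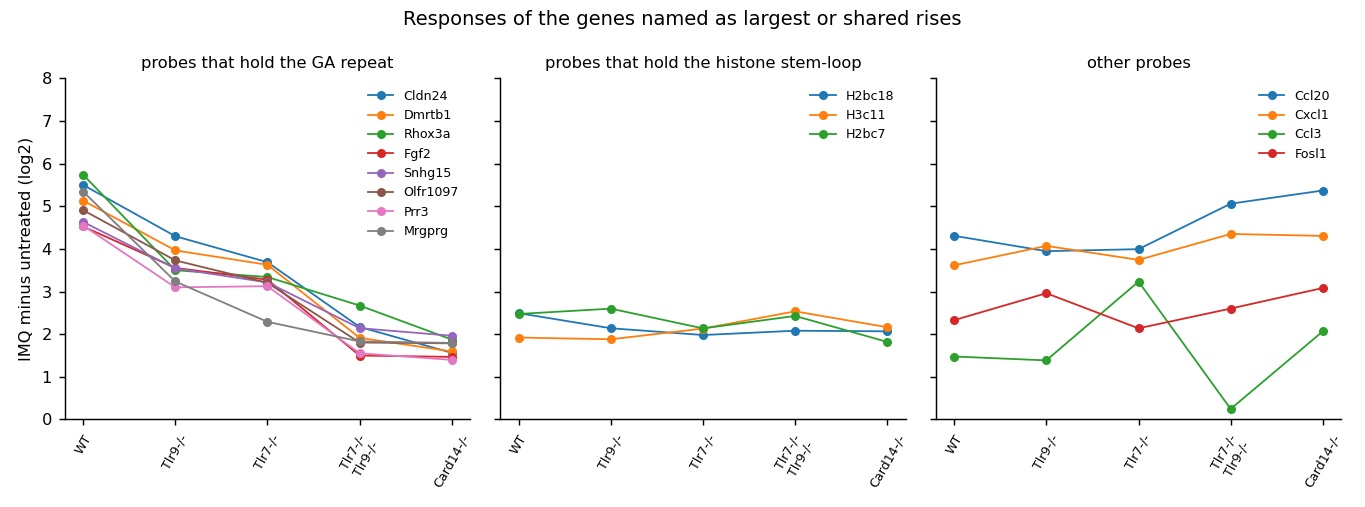
Response (IMQ minus untreated, log2, y axis) of the genes named as largest or shared rises in each genotype (x axis, lines join 1 gene), split by whether the probe holds the GA repeat, the histone stem-loop or neither. The 8 GA-repeat genes lie between 4.53 and 5.74 in WT and between 1.40 and 1.96 in Card14-/- skin, while Ccl20, Cxcl1 and Fosl1 are not lower in Card14-/- than in WT skin.

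Hair genes led the falls among genes above background on all arrays compared. Of 13 tested hair shaft keratins 11 fell and 0 rose in Tlr7-/- skin, with a median response of -4.17. The same list had a median of 1.21 in WT, 2.06 in Card14-/-, -0.49 in Tlr9-/- and -1.70 in Tlr7-/-Tlr9-/- skin, so the genotypes disagreed in sign. Of 38 keratin-associated proteins, which cross-link hair keratin, 33 fell, at a median of -3.89, and of 12 inner root sheath genes 9 fell, at -5.44. Krt71 and Krt25, keratins of the inner root sheath, went from 15.55 to 8.30 and from 13.16 to 5.81 in Tlr7-/- skin and fell by 7.25 and 7.35. Keratins, keratin-associated proteins and listed follicle genes made up 85 of the 882 falls (9.64%), and 0.573% of the genes tested.

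For these lists the untreated Tlr7-/- pool lay above most other untreated skin, and the treated pool lay below the median of other treated skin though not always below all of it. For the hair shaft keratins, the untreated pool lay above the median of the other untreated genotypes by a median of 1.83, and for 11 of 13 genes above all of them. The treated pool lay 2.80 below the median of the other treated genotypes, but below all of them for 2 of the 13. The median level over this list was 7.44 in treated Tlr7-/- and 6.65 in treated Tlr7-/-Tlr9-/- skin. For keratin-associated proteins these offsets were 2.36 and -2.72, and for inner root sheath genes 1.97 and -2.73. Treated skin lay below all 4 others for 21 of 38 and 2 of 12 of these genes. Krt71 read 11.84 to 13.96 in the other untreated pools, and after IMQ 15.13 to 15.18 in WT and Card14-/-, 8.88 in Tlr9-/- and 4.26 to 4.96 in Tlr7-/-Tlr9-/- skin. Treated Tlr7-/- skin thus fell between Tlr9-/- and Tlr7-/-Tlr9-/- skin. With a baseline of the median over the 4 other untreated genotypes, the hair shaft median was -2.14, and 580 of the 882 falls and 743 of the 938 rises were called again. How far hair cycle, sex or treatment made this difference was not tested.

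**Figure D5:**
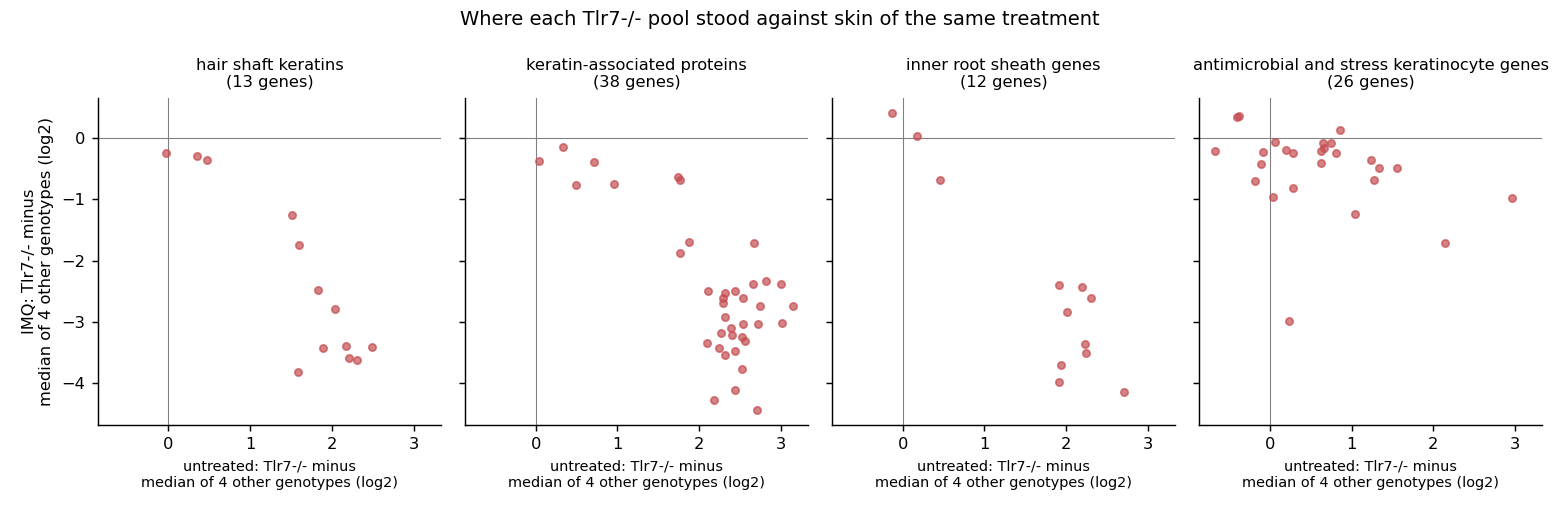
For each tested gene of 4 lists, the level of untreated Tlr7-/- skin minus the median of the 4 other untreated genotypes (x axis, log2) and the same for treated skin (y axis, log2). Hair genes lie to the right and below 0, with median offsets of 1.83 and -2.80 for hair shaft keratins, while the antimicrobial and stress genes lie nearer the origin, at 0.63 and -0.30.

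Genes of follicle regulation were the next hair list. Of 31 tested genes of hair matrix and follicle regulation 11 fell and 0 rose, at a median of -0.48. Sostdc1, a WNT and BMP inhibitor, was among the 5 falls most alike in all genotypes, from 12.08 to 9.81 in Tlr7-/- skin with responses of -2.08 to -1.30 elsewhere. Lgr5, a stem cell receptor gene of the follicle, fell by 1.97, with responses of -1.60 to -0.77 elsewhere, and was named after its values were seen. The other shared falls were Sprr4, Kcne1l, Myh3 and Klk10. Klk10, a kallikrein protease of epidermis, went from 8.83 to 7.10 and had responses of -2.07 to -1.77 in the others. Kcne1l, a potassium channel subunit gene on the X chromosome, fell by 3.29, and Myh3, a myosin heavy chain gene, by 2.93, from 12.79 to 9.87. Sprr4, a cornified envelope precursor, fell by 4.74, and its response differed from the carriers by -1.93 (limma adjusted p = 0.03) and from Tlr7-/-Tlr9-/- skin by -0.39, which was not called.

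Of 26 tested stress and antimicrobial genes of keratinocytes 14 fell and 1 rose in Tlr7-/- skin, at a median of -1.08, where the other genotypes had medians between -0.25 and 0.20. For 11 of the 26 the response was called lower than in the carriers and for 11 lower than in Tlr7-/-Tlr9-/- skin. Over all genes these shares were 1.37% and 2.56%. Krt6b, a keratin of wounded epidermis and of the follicle, went from 11.53 to 7.15, under the 8.42 to 11.52 of the other treated arrays. Its untreated level lay inside the 10.33 to 13.40 of the other untreated pools. Stfa1, a stefin protease inhibitor gene, went from 11.86 to 9.54. Sprr2f, a cornified envelope precursor, went from 8.71 to 3.96, below background, at least 23.8-fold lower, and started above the 6.36 to 7.42 of other untreated skin. S100a7a, the psoriasin gene, went from 4.89, above the 1.86 to 3.44 of other untreated skin, to 1.90, below background, at least 1.69-fold lower.

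The 1 rise among them was Lcn2, the siderophore-binding lipocalin, from 8.59 to 10.40, with responses of 0.95 to 1.20 elsewhere. Of 33 epidermal differentiation genes 8 fell and 0 rose. Tchh, trichohyalin of the inner root sheath and tongue, fell by 5.26 and moved with the hair genes, with a response of 2.61 in Card14-/- skin. Lce3a fell by 3.42, from 9.23 to 5.82, with responses of -1.10 to -0.39 elsewhere, and Rptn, repetin, fell by 2.56 with -2.91 to -1.21 elsewhere. Chac1, a glutathione-degrading target of ATF4, also fell, from 10.93 to 9.64, where it had started above the 9.89 to 10.09 of the other untreated pools.

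Of the 938 rises 55 (5.86%), and of the 882 falls 206 (23.4%), also differed by a call, in the same direction, from both the carriers and Tlr7-/-Tlr9-/- skin. With the limits set for named genes (a gene name, signal above background on all arrays compared, no long purine or pyrimidine run in the probe, no opposed probe, no listed hair gene), 23 genes were higher than both and 65 lower. Both Tlr7-/- arrays enter the response and both differences, so these calls are not independent and a shared direction is favoured. Over all genes, 0.445% were called higher and 1.37% lower than carriers, and 1.99% higher and 2.56% lower than Tlr7-/-Tlr9-/- skin. Mob3b, a kinase activator gene, went from 6.41 to 8.64, while the other treated arrays lay between 5.51 and 6.19. Shisa3, a modulator of WNT and FGF receptors, went from 6.21 to 8.17, while other treated skin read 5.54 to 6.47. Nol4l, a gene of the nucleolar protein 4 family, went from 7.91 to 8.93, against 7.10 to 7.35 in other treated skin. For Mob3b and Nol4l the untreated pool was inside the range of the others and for Shisa3 just under it, and the treated pool stood above all others. For Pde11a, a phosphodiesterase, and Adam3, a sperm surface gene, the untreated pool stood apart too, at 5.35 and 6.02 against 6.52 to 7.14 and 6.88 to 7.98. Another Pde11a probe gave a response of 0.39.

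The 5 most strongly lower genes were Krtap19-9b, Krtap22-2, Krtap6-5, Krtap20-2 and Olfr1134. The first 4 are keratin-associated proteins outside the hair lists. Krtap22-2 went from 13.35, above the 9.90 to 11.43 of other untreated skin, to 9.36, below the 10.20 to 14.22 of other treated skin. Olfr1134, named as an olfactory receptor gene, went from 9.72 to 5.62 and had likewise the highest untreated and lowest treated level.

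Calls among markers of skin cell types were few in number, where 3.9% of all genes were called as rises and 3.66% as falls. Cd207, langerin of Langerhans cells, rose from 10.84 to 12.09, with responses of 0.99 to 1.53 elsewhere, and Cd86, a costimulatory molecule of dendritic cells, by 1.07. Ccr2, a receptor of recruited monocytes, fell by 1.87, with responses of -1.25 to -0.24 elsewhere, and was the 1 call among 16 monocyte and macrophage markers. The list as a whole leaned the other way, with 14 of 16 responses positive and a median of 0.49. At any size 13 of the 16 were higher (limma adjusted p under 0.05), as were 3635 of all 24068 genes. For 10 of the 16 the response was above that in all 4 other genotypes, as it was for 19.1% of all genes. Of 12 T cell markers 1 rose, Il2rb, by 1.49, and 1 fell, Cd5, by 1.13. Ms4a1, the B cell antigen CD20, rose from 6.13 to 8.66, while the 3 other B cell markers tested gave 0 calls. Among 11 neutrophil markers, S100a8 fell from 9.42 to 8.13. Retnlg went from 2.82, below background, to 4.52, at least 1.55-fold higher. Of 13 endothelial markers 2 rose, Lyve1 of lymphatic vessels by 1.23 and Cldn5 of vessel junctions by 1.17. At any size 11 of the 13 were higher (limma adjusted p under 0.05). Their median response was 0.74, with 0.20 to 0.84 in the other genotypes. Of 8 erythroid genes 3 rose, with Hba-a2, an alpha globin gene, at 1.29. Of 14 collagen and fibroblast genes, Col1a1 rose by 1.00, where it had a response of -0.76 to -0.16 elsewhere, with 0.64 and 0.85 on its other probes. It was the 1 call of this list, in which 6 of 14 responses were positive. The list median was -0.02, with -0.60 to -0.16 in the other genotypes. For 10 of the 14 the response was above all 4 other genotypes, as for 19.1% of all genes. Of 12 melanocyte markers 1 fell, and of 13 adipocyte genes 0 rose and 0 fell (0 at an unadjusted p under 0.05 and a size of at least 1).

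The remaining pathway lists concern signalling around the receptor. Of 33 genes of the Toll-like receptor pathway 2 rose and 2 fell. Tlr5, the flagellin receptor, rose from 8.66 to 10.03. Traf6, the ubiquitin ligase downstream of MyD88, rose by 1.03, but its 4 other probes read between -0.53 and 0.51. The falls were Tlr7 itself, with its treated value below background, and Tlr11, which was also below background after IMQ. The Tlr7 fall is a change in signal left on the main probe, which was well above background on 4 arrays lacking Tlr7. Another Tlr7 probe, well above background on only 1 of those lacking it, went from 3.99 to 4.45 in Tlr7-/- skin. Of 10 genes listed for reported actions of IMQ other than on TLR7, 8 were tested, since Trpv1 and Trpa1 did not pass the signal filter. The RNA of 2 fell: Gli1, the hedgehog transcription factor, from 9.52 to 8.05 with -1.23 to -0.70 elsewhere, and Adora2b, an adenosine receptor, from 9.93 to 8.85. Of 14 inflammasome genes and 12 heat shock genes 0 rose and 0 fell (0 at an unadjusted p under 0.05 and a size of at least 1).

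Of 14 glucocorticoid-responsive genes 3 rose, at a median of 0.76: Lcn2, Pdk4, a kinase that shuts down pyruvate oxidation, by 1.35, and Fkbp5, a co-chaperone of the glucocorticoid receptor, by 1.14. The medians of the list in WT, Tlr9-/-, Tlr7-/-Tlr9-/- and Card14-/- skin were 0.62, 0.49, 0.74 and 0.21. Of 18 circadian clock genes 1 rose. Cry1, a clock repressor, went from 6.79 to 8.89, with 1.91 in WT and 1.61 in Card14-/- skin, although another probe read -0.66. The untreated mice are labelled 0 h, and the hour of sampling is not stated in the labels.

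Several further lists held few calls each. Of 16 NRF2 targets 1 rose, Osgin1, an oxidative stress gene, by 1.30. Of 18 unfolded protein and ATF4 targets Hyou1, an endoplasmic reticulum chaperone, rose by 1.38, while its other probes read -0.17 and 0.16, and Chac1 fell. Of 10 mast cell markers 1 rose and 1 fell, 2 of 12 genes of nerve and Schwann cells fell, and of 12 sebaceous gland and 15 skeletal muscle genes 1 each rose. At any size 10 of the 12 nerve and Schwann cell genes were lower (limma adjusted p under 0.05). Their median response was -0.63, with -0.84 to -0.47 in the other genotypes. Of 10 cartilage genes 0 rose and 0 fell in limma, with 0 at an unadjusted p under 0.05 and a size of at least 1.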

How the data were processed

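Whole ear skin RNA was labelled with Cy3 and hybridised to 12 single-colour arrays. The spot intensity values were deposited by the authors as Agilent Feature Extraction output, version 10.7.3.1 per the file headers and 10.5.1.1 per the submitters' processing notes. The authors also deposited a log2 table, background-subtracted and normalized with limma per the labels' design text, used here as an alternative. From the processed signal, control spots and 235 outlier probes were left out, log2 values were quantile-normalised, and a probe had to be well above background on 2 or more arrays. A gene was read on its probe of highest mean signal, giving 24068 genes. Limma 3.58.1 (R 4.3.3) was fitted to the 10 group means with 2 residual degrees of freedom. Calls needed an adjusted p (Benjamini-Hochberg) under 0.05 with a log2 difference of 1 or more. "At least" folds set the brighter value against the lowest measurable signal of the dimmer array. Tested on simulated data, the fit recovered 156 of 200 changed genes (78%) and called 8 others. The simulation gave every array the spread of the repeat arrays, so it cannot test whether the lone pools vary like them. The median SE of the response was 0.08 in the main fit and 0.257 with the spread between responses. Named genes were the largest and shared rises and falls, those lost against carriers, those apart from both references, and the 4 largest responses of each list. One list is not reported here. The members and lists were chosen with earlier results of these data known. Other backgrounds, scalings, filters, baselines, spreads and left-out arrays were tried. The number of arrays limits the precision.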

Additional observations from a re-analysis of the deposited data

Results flagged for a closer look

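The response of Tlr7-/- skin differed from the mean response of WT, Tlr9-/- and Card14-/- skin for 107 genes upward and 329 downward, and from that of Tlr7-/-Tlr9-/- skin for 478 upward and 616 downward, by a limma test of the difference itself. The named genes with a lower response than in carriers were Ifit1 at -4.44, Mx2 at -3.73, Mx1 at -3.24, Cxcl10 at -3.19, Oasl1 at -3.0, Cmpk2 at -2.93, Usp18 at -2.12, Slc13a3 at -1.82, Ccl12 at -1.46 and Lce3c at -1.34. Genes with a higher response than in both references were Mob3b at 2.70, Pde11a at 2.60, Shisa3 at 2.49, Adam3 at 2.06 and Nol4l at 1.70 against the carriers. Those with a lower one were Krtap22-2 and Krtap6-5, both at -5.78, Olfr1134 at -5.73, Krtap20-2 at -5.43 and Krtap19-9b at -4.97. With the spread between the genotypes' responses, 0 genes differed from the carriers (250 higher and 409 lower at an unadjusted p under 0.05) and 0 from Tlr7-/-Tlr9-/- skin (348 and 458).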

How the results depend on the processing

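Counts are given as higher and lower for the response, its difference from carriers, its difference from Tlr7-/-Tlr9-/- skin, and untreated Tlr7-/- against other untreated skin. With the spread between the other genotypes' responses they were 1 and 1, 0 and 0, 0 and 0, and 6 and 6. With the replicate number as a block they were 137 and 169, 8 and 50, 0 and 0 (869 and 1186 at an unadjusted p under 0.05), and 0 and 0 (312 and 114). The number pairs no samples by the labels. Leaving out 1 repeat array or genotype gave 74 to 732 and 96 to 676 for the response, 0 to 115 and 0 to 393 against carriers (158 and 345 without both Card14-/- arrays), 0 and 0 against Tlr7-/-Tlr9-/- skin, and 0 to 164 and 0 to 49 for untreated skin. Both lowest values of the response came without a Card14-/- array, and each arm left with 1 sample is assumed to vary like the others. With normexp background the response gave 552 and 351, the lower counts against Tlr7-/-Tlr9-/- and untreated skin were 376 and 12, and the hair shaft median was -3.47. With the authors' deposited log2 values, 495 genes fell and 18 were lower untreated. Without a filter on dim probes the counts were 624 and 648 against carriers, 872 higher against Tlr7-/-Tlr9-/-, and 273 and 118 untreated. With probes well above background on all 12 arrays 543 fell, 16 were lower untreated, and the hair median was -3.90. With no size limit they were 3635 and 4543, 221 higher than carriers, 1188 and 1234 against Tlr7-/-Tlr9-/-, and 79 lower untreated. The hair median was -2.16 with the median of all 5 untreated groups as baseline. Chosen after seeing the data, it was -2.14 with the 4 other groups and -3.90 without GA-repeat probes. The cause of these moves was not tested. Over 12 settings the interferon-stimulated median stayed between -0.29 and -0.14, the immediate early median between 0.50 and 0.79 and the NF-kB median between 0.27 and 0.44. No list median given here changed sign in the settings run for it. The counts have no sign, but their balance changed. Rises outnumbered falls in the main fit, at 938 and 882. Falls outnumbered rises in other settings, such as 137 and 169 with the block and 3635 and 4543 with no size limit.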
